A study of Mus musculus with 6 samples.

Results

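The genes described here encode the ADAM, ADAMTS and ADAMTSL proteins, measured by bulk RNA sequencing in YUMM3.3 melanoma tumors from mice that received rigosertib (RGS) or vehicle. They were chosen by name alone, as the protein-coding genes whose symbol is Adam, Adamts or Adamtsl followed by a number and at most 1 letter, and they number 53 of the 40166 genes in the table: 29 ADAM, 19 ADAMTS and 5 ADAMTSL genes. The tumors grew under the skin from YUMM3.3, a single mouse melanoma line with mutant BRAF, implanted in C57BL/6 mice with an intact immune system. RGS, a compound that interferes with RAS signaling, was given by oral gavage at 300 mg/kg, and vehicle mice received the carrier alone. From each group 3 tumors were taken after 17 days of treatment, and the ages and sexes of the mice are not given in the labels. The labels describe each library as tumor tissue collected in bulk, in which fewer cells of a type and less RNA per cell cannot be told apart.

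ADAM proteins are membrane-anchored metalloproteases that cut the outer parts of other membrane proteins, releasing growth factors, cytokine receptors and adhesion molecules, although several members have no active site and act in adhesion instead. ADAMTS proteins are secreted relatives that carry thrombospondin repeats and process the extracellular matrix, including proteoglycans, procollagens and von Willebrand factor. ADAMTSL proteins share the thrombospondin repeats but lack the protease domain and bind to the matrix. In tumors these families are known for releasing EGF receptor ligands and Notch fragments and for remodeling the stroma.

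Between 13837932 and 32555494 reads per tumor were counted on genes, and all 3 vehicle libraries exceeded all 3 RGS libraries in depth. Levels are given as counts per 1000000 counts (CPM) on library totals scaled by TMM factors, which ranged from 0.920 to 1.08, with SD over 3 tumors. A floor of 3 counts was worth 0.0856 to 0.226 CPM depending on the library, and this covers counting error only. The groups were compared with the quasi-likelihood test of edgeR, with p-values adjusted by Benjamini-Hochberg over the 15355 genes whose median count reached 5 in either group. The labels do not state that the tumors of a group came from separate mice. The p-values therefore set the group difference against the spread between these tumors only, and that spread may be technical. Tumor identity was checked against markers: the pigment cell genes Mlana, Tyr and Dct had no read in any tumor and Sox10 had none in the vehicle tumors, while Mitf averaged 5.46 ± 1.74 CPM in vehicle tumors and 7.43 ± 2.97 CPM in RGS tumors (adjusted p = 0.44). Of 8 such markers 2 could be tested and neither passed, so most defining transcripts of the labelled cell type were at or near 0. Some host cells that tumor tissue in such mice would hold were also barely visible. Of 7 T cell markers 5 had no read in any tumor, and the endothelial list summed to 0.946 to 1.20 CPM with vehicle. The macrophage gene Csf1r had at most 1 read in each tumor and 5 of 9 macrophage markers never exceeded the floor. The whole macrophage list summed to 65.1 to 70.9 CPM with vehicle, but only 2 of its 9 genes, Cd14 and Cd68, passed the filter on low counts. Fibroblast markers summed to 408 to 602 CPM and pericyte and smooth muscle markers to 178 to 253 CPM with vehicle. B cell and neutrophil markers summed to at most 0.473 and 0.527 CPM in any tumor. The sparse pigment cell and T cell values go against the tissue label, in both groups. The fibroblast and pericyte sums do not show whether host or tumor cells made those transcripts, which was not tested. All results below rest on the same 6 libraries.

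Of the 53 genes, 26 passed the filter on low counts, 8 of them were higher and 5 lower with RGS, and 13 did not pass the test. The higher genes were Adam15, Adam8, Adam17 and Adam21, Adamts7, Adamts4 and Adamts1, and Adamtsl1. The lower genes were Adam9 and Adam19, Adamts14 and Adamts9, and Adamtsl4. Each subfamily thus held genes that rose and genes that fell. Higher calls made up 30.8% of the 26 genes tested against 16.3% of all genes tested, and lower calls 19.2% against 16.5%. All RGS tumors lay below all vehicle tumors for 11 of the 26 genes (42.3%, against 24.0% of all genes tested) and above them for 7 (26.9%, against 21.7%), and the groups overlapped for 8. These shares are descriptions, since Adam33, Adamts5 and Adamtsl3 passed the filter through the vehicle tumors alone and Adam21 and Adam32 through the RGS tumors alone. The median log2 fold change of the 26 was -0.25 and that of all genes tested -0.05, while the median absolute log2 fold change was 1.05 and 0.63. Scaling to library size alone moved the median of all genes to -0.19 and the split of the 26 genes from 8 higher and 5 lower to 6 higher and 7 lower. Over all genes this scaling reduced the share of higher calls among calls from 49.7% to 37.2%.

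**Figure D1:**
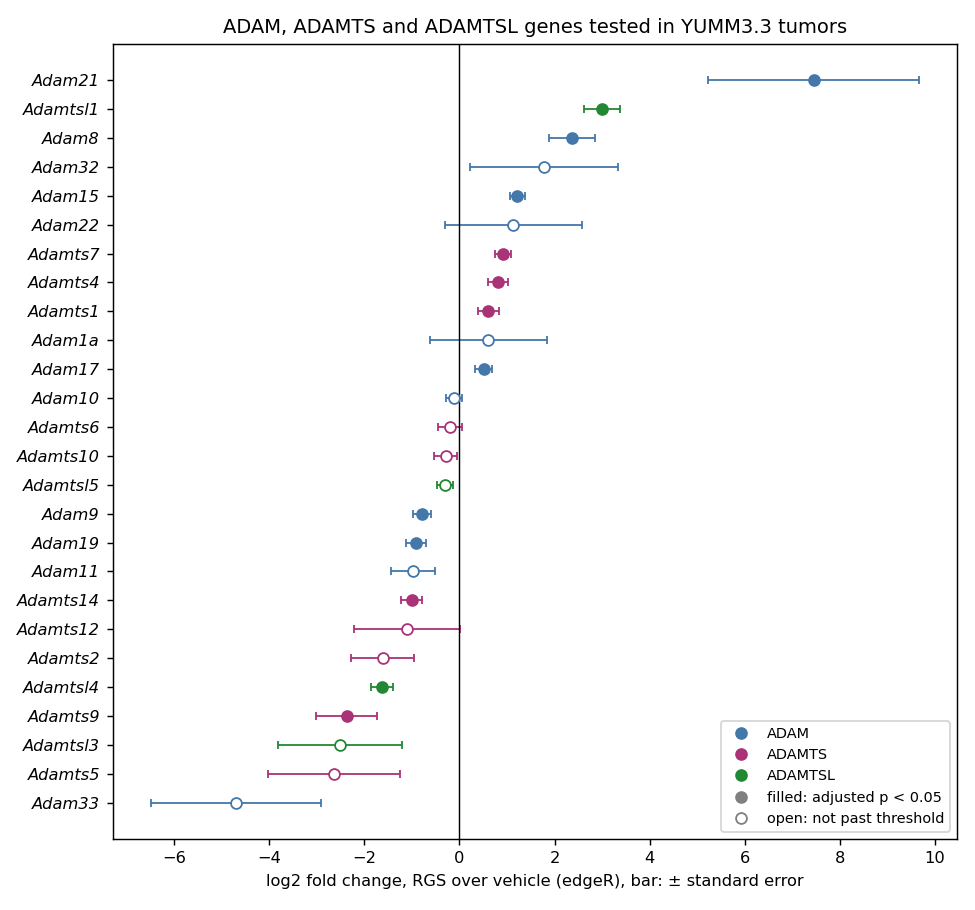
Log2 fold change of RGS over vehicle (horizontal axis, edgeR fit, bars are the standard error) for the 26 genes tested, colored by subfamily, with filled points for adjusted p under 0.05. The 8 filled points right of zero run from Adam17 at 0.51 to Adamtsl1 at 3.00 and Adam21, whose vehicle libraries had no read, and the 5 left of zero from Adam9 at -0.78 to Adamts9 at -2.37.

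The promoters of Adam15, Adam8, Adamtsl4 and Adamts9 are shown because these genes combined large changes with reads in both groups. Adamtsl1, which rose most among such genes, has no entry in the promoter table. Each sequence runs from 250 bases before to 50 bases after the start of the RefSeq gene on GRCm38.p6, in the direction of transcription. All lie on the minus strand, at chr3:89349979-89350278 for Adam15, chr7:139992513-139992812 for Adam8, chr3:95687868-95688167 for Adamtsl4 and chr6:92943485-92943784 for Adamts9. Capitals mark matches on either strand to the GC box bound by Sp factors (GGGCGG, or CCGCCC when read on the other strand) and to the ETS motif (CCGGAAG).
Adam15: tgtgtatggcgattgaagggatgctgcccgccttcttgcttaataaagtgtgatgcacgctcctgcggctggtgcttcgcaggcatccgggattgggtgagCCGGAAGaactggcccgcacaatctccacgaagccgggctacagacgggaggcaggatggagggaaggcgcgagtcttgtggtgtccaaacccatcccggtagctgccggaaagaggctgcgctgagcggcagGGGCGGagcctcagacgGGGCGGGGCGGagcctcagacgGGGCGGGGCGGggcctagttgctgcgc
Adam8: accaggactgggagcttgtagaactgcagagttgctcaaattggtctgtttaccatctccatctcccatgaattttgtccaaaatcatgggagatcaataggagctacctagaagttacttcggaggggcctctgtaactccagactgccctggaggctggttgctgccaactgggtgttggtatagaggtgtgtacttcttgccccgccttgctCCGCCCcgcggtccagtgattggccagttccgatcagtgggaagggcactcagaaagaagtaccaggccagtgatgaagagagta
Adamtsl4: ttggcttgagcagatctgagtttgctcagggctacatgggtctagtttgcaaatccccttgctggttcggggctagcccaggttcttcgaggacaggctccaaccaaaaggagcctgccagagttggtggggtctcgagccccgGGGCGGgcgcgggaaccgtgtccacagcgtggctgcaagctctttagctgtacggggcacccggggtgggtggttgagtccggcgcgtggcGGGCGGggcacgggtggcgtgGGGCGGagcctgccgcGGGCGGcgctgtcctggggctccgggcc
Adamts9: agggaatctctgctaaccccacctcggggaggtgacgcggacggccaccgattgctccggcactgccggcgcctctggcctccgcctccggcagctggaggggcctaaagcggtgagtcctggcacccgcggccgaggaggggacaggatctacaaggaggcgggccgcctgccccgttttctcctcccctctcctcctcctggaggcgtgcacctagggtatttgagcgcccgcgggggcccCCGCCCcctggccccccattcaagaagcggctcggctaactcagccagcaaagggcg
The Adam15 promoter held 5 GC box matches and 1 ETS match, and those of Adamtsl4, Adam8 and Adamts9 held 4, 1 and 1 GC box matches. GC content was 65.3% for Adam15, 52.3% for Adam8, 68.0% for Adamtsl4 and 70.0% for Adamts9, against a median of 52.7% over all promoters. An entry was found for 9 of the 13 genes that passed the test, with 11 promoters in all because Adam19 has 3. A GC box match was found in 8 of these 11 promoters (72.7%), in 4 of the 7 promoters of genes tested that did not pass, and in 35.7% of all 32851 promoters. The ETS motif matched in Adam15 and Adam17 (8.86% of all promoters), the AP-1 motif (TGANTCA) in Adam19 (7.81%), and the CATGTG box read by MITF in none of the 11 (14.2%). Rising and falling genes both carried GC box matches, 4 of 5 promoters and 4 of 6. A match is a description of the sequence and not of binding.

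Among the 9 ADAM genes with an active protease that are used outside the reproductive tract, 7 were tested, 3 rose and 2 fell. These counts are descriptions, to be read beside 16.3% called higher and 16.5% lower over all genes tested. Adam15 (ENSMUSG00000028041.17, chr3:89338542-89349996), a protease with an integrin-binding disintegrin domain, measured 149, 118 and 106 CPM in the vehicle tumors and 286, 296 and 284 CPM in the RGS tumors. The 3 RGS tumors sat close together, well above every vehicle tumor. The mean rose from 124 ± 22.4 to 289 ± 6.49 CPM, a 2.32-fold increase (log2 fold change 1.22, SE 0.16, adjusted p = 1.33e-05). Exons of Adam15 share 1263 of 6145 bases with 4731419I09Rik, which had at most 19 counts in any tumor. Adam8 (ENSMUSG00000025473.16, chr7:139978932-139992562), a sheddase best known from leukocytes, measured 2.11, 2.35 and 0.946 CPM with vehicle and 5.21, 12.7 and 10.3 CPM with RGS. All RGS tumors were above all vehicle tumors, although RGS tumor 10 lay well under the other two. This was a 5.16-fold increase from 1.80 ± 0.752 to 9.40 ± 3.81 CPM (log2 fold change 2.37, SE 0.49, adjusted p = 0.001).

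The sheddases ADAM17 and ADAM10 share many substrates. The RNA of Adam17 passed the test and that of Adam10 did not, and no test of the difference between them is given. ADAM17 is the main enzyme that releases TNF and several EGF receptor ligands. Adam17 (ENSMUSG00000052593.16, chr12:21323509-21373632) measured 84.7, 77.5 and 66.3 CPM with vehicle and 136, 97.9 and 90.4 CPM with RGS. RGS tumor 10 was the highest, and the lowest RGS tumor was just above the highest vehicle tumor. The level rose from 76.2 ± 9.29 to 108 ± 24.7 CPM (log2 fold change 0.51, SE 0.18, adjusted p = 0.0381). This call was lost with library size scaling (adjusted p = 0.155) and without vehicle tumor 8 (0.0812), vehicle tumor 9 (0.121), RGS tumor 10 (0.226) or RGS tumor 11 (0.058). Exons of Adam17 overlap those of Iah1 on the opposite strand over 311 of 7154 bases, and Iah1 was lower with RGS (log2 fold change -0.79). ADAM10 is the sheddase of Notch receptors and N-cadherin. Adam10 (ENSMUSG00000054693.14, chr9:70678997-70780229) measured 167, 131 and 124 CPM with vehicle and 146, 114 and 127 CPM with RGS, so that the groups overlapped (log2 fold change -0.12, SE 0.17, adjusted p = 0.617).

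Both ADAM genes that fell encode widely expressed sheddases. Adam9 (ENSMUSG00000031555.15, chr8:24949611-25016927), whose product cuts membrane-bound growth factors and binds integrins, measured 294, 258 and 223 CPM with vehicle and 198, 123 and 129 CPM with RGS. The RGS tumors were all below the vehicle tumors, with RGS tumor 10 nearest to them. Its level dropped 1.72-fold, from 258 ± 35.3 to 149.9 ± 41.4 CPM (log2 fold change -0.78, adjusted p = 0.00307). Adam19 (ENSMUSG00000011256.16, chr11:46055992-46147343), which cuts neuregulin and is needed for heart development, measured 122, 89.4 and 68.4 CPM with vehicle and 48.1, 60.6 and 40.7 CPM with RGS. No RGS tumor reached the lowest vehicle tumor (log2 fold change -0.91, SE 0.21, adjusted p = 0.00264). Adam33, expressed in mesenchymal cells of the airway, had 9, 22 and 22 counts with vehicle and 0, 0 and 1 count with RGS. The vehicle mean was at least 2.93-fold above the RGS floor of 3 counts per library, and the adjusted p was 0.0504. Adam12 and Adam28 were under the filter, with 22 and 7 counts over the 6 tumors, and 19 of the Adam12 counts came from RGS tumor 11.

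The other ADAM genes were sparse. Of the 3 neural ADAM genes without an active protease, Adam11 measured 5.88, 7.09 and 7.65 CPM with vehicle and 1.99, 5.65 and 2.94 CPM with RGS. The groups did not overlap, but the adjusted p was 0.115. Adam22 did not pass either (adjusted p = 0.59), and Adam23 had 2 counts in all. Among 17 genes known mainly from testis and sperm, 10 had no read in any tumor (Adam18, Adam1b, Adam20, Adam25, Adam29, Adam3, Adam34, Adam39, Adam6b and Adam7) and 4 had 1 to 16 counts over all tumors (Adam2, Adam30, Adam4 and Adam5). Adam1a (adjusted p = 0.748) and Adam32 (0.413) were tested and did not pass. Adam21 (ENSMUSG00000008438.3, chr12:81558584-81568474), a testis gene, had no read with vehicle, and with RGS it had 24 reads in tumor 10, 23 in tumor 11 and none in tumor 12. The mean with RGS, 0.956 ± 0.880 CPM, was at least 7.41-fold above the vehicle floor of 3 counts per library, with an adjusted p of 0.0161. The groups therefore overlapped at zero. The call was lost without vehicle tumor 7 (adjusted p = 0.0569), vehicle tumor 8 (0.071), RGS tumor 10 (0.0735) or RGS tumor 11 (0.0861). With a stricter filter on low counts, the filterByExpr rule of edgeR, Adam21 was not tested at all.

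**Figure D2:**
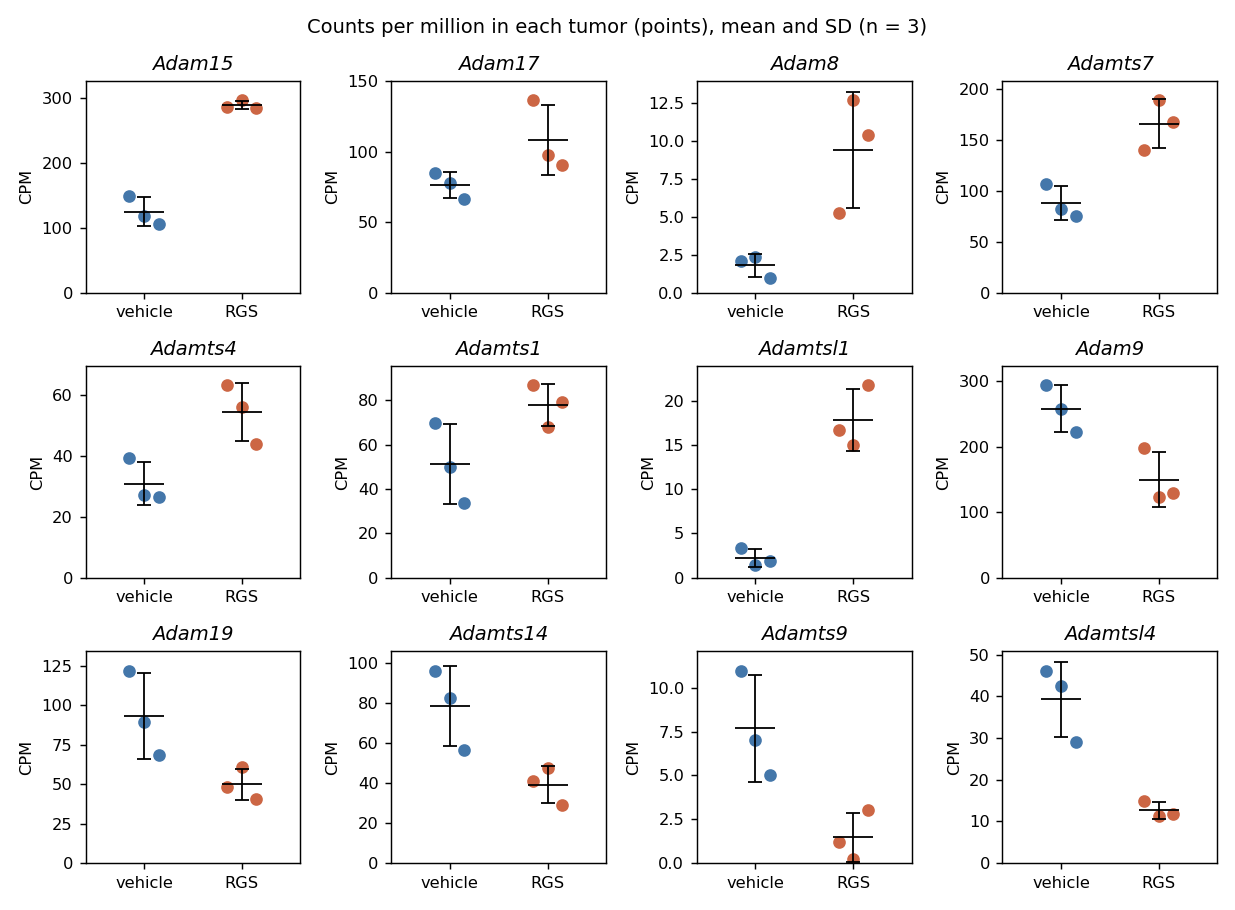
CPM (vertical axes, each starting at 0) in each tumor for 12 genes past the threshold other than Adam21, with the mean and SD of 3 tumors per group. For 11 of these genes the vehicle and RGS points are separate, and for Adamts1 RGS tumor 11 (68.0 CPM) lies under vehicle tumor 7 (69.8 CPM).

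The proteoglycan-cleaving ADAMTS genes, which cut aggrecan, versican and related matrix proteoglycans, went in both directions. Of 7 members 4 were tested, of which 2 rose and 1 fell. Over all genes tested 16.3% were called higher and 16.5% lower, so calls in both directions are not particular to this group. Adamts4 (ENSMUSG00000006403.13, chr1:171250421-171260637), an aggrecanase, measured 39.2, 27.1 and 26.5 CPM with vehicle and 63.2, 56.1 and 44.1 CPM with RGS. Every RGS tumor was above every vehicle tumor, and the level rose from 30.9 ± 7.17 to 54.5 ± 9.68 CPM (log2 fold change 0.82, SE 0.21, adjusted p = 0.00522). Adamts1 (ENSMUSG00000022893.14, chr16:85793827-85803113), which cuts versican and also blocks blood vessel growth, measured 69.8, 50.1 and 33.8 CPM with vehicle and 86.7, 68.0 and 79.2 CPM with RGS. The groups overlapped, since vehicle tumor 7 lay above RGS tumor 11 (log2 fold change 0.60, SE 0.22, adjusted p = 0.0393). This call was lost with library size scaling (adjusted p = 0.134), after thinning all libraries to the smallest total (0.0557), and without vehicle tumor 8 (0.075), vehicle tumor 9 (0.183), RGS tumor 10 (0.139) or RGS tumor 12 (0.0979).

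Adamts9 (ENSMUSG00000030022.14, chr6:92772699-92943492), a versican-cleaving protease also needed for forming cilia, showed the largest decrease among the genes called lower. Its counts were 385, 197 and 117 with vehicle against 25, 3 and 49 with RGS, which corresponds to 10.99, 7.02 and 5.03 CPM against 1.184, 0.226 and 3.00 CPM. Both groups spread widely, and the highest RGS tumor stayed below the lowest vehicle tumor. The decrease was 5.17-fold (log2 fold change -2.37, SE 0.64, adjusted p = 0.00784). Adamts5, the other main aggrecanase, lies 53.1 kb from Adamts1 on chromosome 16 and had 65, 28 and 12 counts with vehicle and 2, 0 and 7 with RGS. Its groups did not overlap either, with an adjusted p of 0.155. Adamts8 and Adamts20 were under the filter, with 15 counts from RGS tumors 10 and 11 and 7 counts from vehicle tumor 8, and Adamts15 had no read.

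Among the remaining ADAMTS genes, Adamts7 and Adamts14 had the highest levels per length and went in opposite directions. Adamts7 (ENSMUSG00000032363.15, chr9:90163069-90208071), which cuts cartilage oligomeric matrix protein and acts on vascular smooth muscle, measured 107, 81.9 and 74.9 CPM with vehicle and 140.4, 189 and 168 CPM with RGS. The lowest RGS tumor was above the highest vehicle tumor, and the level rose 1.88-fold from 87.9 ± 16.8 to 166 ± 24.3 CPM (log2 fold change 0.91, SE 0.17, adjusted p = 0.000508). Its exons share 122 of 6282 bases with Tbc1d2b on the opposite strand, whose log2 fold change was -0.12. Adamts14 (ENSMUSG00000059901.12, chr10:61197112-61273438), which removes the amino-terminal propeptide of procollagen, measured 96.1, 82.4 and 56.5 CPM with vehicle and 40.8, 47.4 and 29.1 CPM with RGS. All RGS tumors were below all vehicle tumors, and the mean fell from 78.3 ± 20.1 to 39.1 ± 9.25 CPM (log2 fold change -1.004, SE 0.22, adjusted p = 0.00148). Adamts2, the other tested procollagen peptidase, measured 4.82, 1.89 and 5.25 CPM with vehicle and 1.184, 1.81 and 0.918 CPM with RGS. Vehicle tumor 8 came close to RGS tumor 11, and the adjusted p was 0.0672. Adamts12, the other gene of the cartilage oligomeric matrix protein pair, measured 1.179 ± 0.328 and 0.547 ± 0.395 CPM (adjusted p = 0.488). The fibrillin-binding genes did not pass, at 18.0 ± 3.12 and 14.7 ± 0.886 CPM for Adamts10 (adjusted p = 0.397) and 16.3 ± 0.461 and 14.2 ± 1.95 CPM for Adamts6 (0.581). Adamts3 and Adamts17 had 1 and 5 counts, and Adamts13, the protease of von Willebrand factor, had no read, as did Adamts16, Adamts18 and Adamts19.

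Opposite changes were also measured within the ADAMTSL genes. Adamtsl1 (ENSMUSG00000066113.16, chr4:85514172-86428385), a secreted matrix protein also called punctin, measured 3.34, 1.39 and 1.89 CPM with vehicle and 16.7, 15.0 and 21.7 CPM with RGS. Each RGS tumor was far above every vehicle tumor, with a 7.99-fold increase from 2.21 ± 1.01 to 17.8 ± 3.50 CPM (log2 fold change 3.00, SE 0.38, adjusted p = 7.19e-06). Adamtsl4 (ENSMUSG00000015850.11, chr3:95676201-95687917), which binds fibrillin and anchors the fibers that hold the eye lens, measured 46.2, 42.4 and 29.2 CPM with vehicle and 15.0, 11.3 and 11.7 CPM with RGS. The groups did not overlap, and the level fell 3.10-fold from 39.3 ± 8.96 to 12.6 ± 2.01 CPM (log2 fold change -1.63, SE 0.24, adjusted p = 3.39e-05). Adamtsl5 measured 59.6 ± 4.39 and 48.2 ± 4.33 CPM, with no overlap but an adjusted p of 0.181. Adamtsl3 had 77, 45 and 51 counts with vehicle and 0, 0 and 17 with RGS (adjusted p = 0.149), so that RGS tumor 12 alone held reads in its group. Adamtsl2 had no read.

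Compared per length, as CPM divided by the kilobases of the gene model (RPKM), the order of the members changed with RGS. With vehicle the highest was Adam9 at 62.7 ± 8.57 RPKM, followed by Adam10 at 28.6 ± 4.65 and Adam15 at 20.2 ± 3.64, and then Adamts14 (15.1 ± 3.87), Adamts7 (14.0 ± 2.67), Adam19 (13.1 ± 3.81) and Adamtsl5 (12.6 ± 0.930), whose tumors overlapped. With RGS the highest mean was that of Adam15 at 47.0 ± 1.06 RPKM, then Adam9 at 36.4 ± 10.05, Adamts7 at 26.4 ± 3.86 and Adam10 at 26.3 ± 3.302. Adam15 and Adam9 overlapped with RGS, since Adam9 reached 48.0 RPKM in RGS tumor 10 against 46.6 RPKM for Adam15. Adamts14 and Adam19 moved down to 7.52 ± 1.78 and 7.001 ± 1.42 RPKM. Within each tumor the ratio of Adam15 to Adam9 was 0.340, 0.307 and 0.317 with vehicle and 0.971, 1.61 and 1.47 with RGS. The ratio of Adamts7 to Adamts14 was 0.920, 0.822 and 1.10 with vehicle and 2.85, 3.29 and 4.77 with RGS. Adam17 over Adam10 was 0.349, 0.406 and 0.367 with vehicle and 0.640, 0.589 and 0.488 with RGS. These pairs were chosen after their values were seen, so no test is given. Adam15 and Adam9 were already separate between the groups in opposite directions, as were Adamts7 and Adamts14. Their ratios therefore could not overlap, and this adds nothing to the single genes. The ratio of Adam17 to Adam10 did not overlap either.

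**Figure D3:**
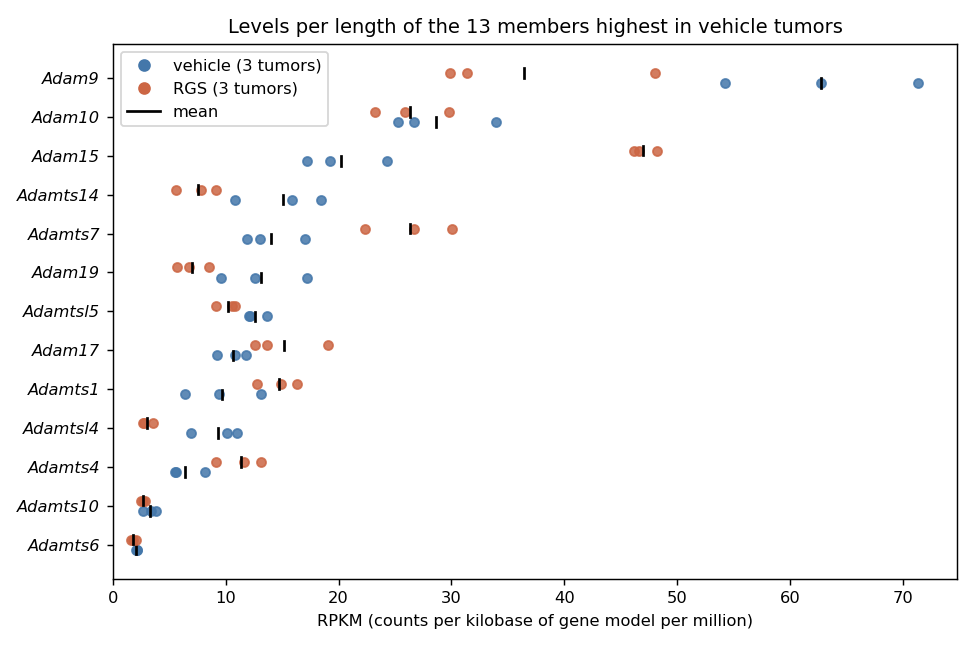
RPKM (horizontal axis, from 0) of the 13 members highest in vehicle tumors, with 1 point per tumor and a line at the group mean. Adam9 stands alone at the top with vehicle (54.2 to 71.3 RPKM), while with RGS Adam15 (46.2 to 48.2 RPKM) reaches the range of Adam9 (29.9 to 48.0 RPKM).

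The levels were also summed over each subfamily. Summed over ADAM genes, the tumors held 826, 687 and 599 CPM with vehicle and 825, 718 and 686 CPM with RGS, which overlap. ADAMTS genes summed to 367, 284 and 239 CPM with vehicle and 362, 392 and 356 CPM with RGS, and vehicle tumor 7 lay among the RGS tumors. ADAMTSL genes summed to 109, 103 and 97.9 CPM with vehicle and 81.7, 77.6 and 77.7 CPM with RGS, without overlap. Within the vehicle group, tumor 7 was the highest for 15 of the 22 members with a mean of at least 1 CPM, and it was also the deepest library of all. The same count was not made over all genes, and a part of depth in it was not tested.

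Genes that act with these proteases were read from lists of inhibitors, partners, processing enzymes and substrates. Over all genes tested 16.3% were called higher and 16.5% lower, and the counts given for these lists are descriptions to be read beside those shares. Of 5 inhibitors 4 were tested, 2 rose and 1 fell. Timp3, the inhibitor of ADAM17 and of the aggrecanases, measured 87.6, 67.8 and 40.3 CPM with vehicle and 37.7, 27.1 and 21.2 CPM with RGS. No RGS tumor reached the vehicle range (log2 fold change -1.18, SE 0.26, adjusted p = 0.0015), and its exons share 1733 of 8144 bases with Syn3 on the opposite strand, which had at most 19 counts per tumor. Timp2, best known as an inhibitor of matrix metalloproteases, measured 941, 760.2 and 648 CPM with vehicle and 1404, 1233 and 1248 CPM with RGS (log2 fold change 0.73, adjusted p = 0.00186). Timp1, which inhibits ADAM10, measured 159, 182 and 200.3 CPM with vehicle and 235, 244 and 250.4 CPM with RGS (log2 fold change 0.43, adjusted p = 0.0352). For both genes every RGS tumor was above every vehicle tumor. Reck, a membrane-anchored inhibitor, measured 6.08, 6.56 and 2.02 CPM with vehicle and 10.04, 5.80 and 8.32 CPM with RGS, which overlap (adjusted p = 0.228). Timp4 was under the filter, with 1 read in RGS tumor 11, 8 in RGS tumor 12 and none elsewhere. The list summed to 891 to 1194 CPM with vehicle and 1509 to 1686 CPM with RGS.

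Partners of ADAM10 and ADAM17 either rose or did not pass. Of 9 partners 7 were tested and 4 rose: the tetraspanin Tspan14 (38.7 ± 2.90 and 90.5 ± 7.32 CPM, log2 fold change 1.23) and Tspan17 (14.0 ± 2.12 and 31.5 ± 10.3 CPM, 1.17), both carriers of ADAM10, Frmd8 (132 ± 30.7 and 268 ± 18.1 CPM, 1.02), which stabilizes the ADAM17 complex, and Rhbdf2 at a log2 fold change of 0.64 (adjusted p = 0.011), which carries ADAM17 through the secretory pathway. Tspan5, Tspan15 and Rhbdf1 had log2 fold changes of -0.27, -0.28 and -0.24 and did not pass. Both tested convertases, which remove the inhibitory propeptide of ADAM and ADAMTS proteins, rose: Furin from 154.5 ± 23.0 to 315 ± 27.9 CPM (log2 fold change 1.03, adjusted p = 6.54e-05) and Pcsk7 from 13.1 ± 2.96 to 32.4 ± 4.39 CPM (1.30, adjusted p = 0.000354). Exons of Pcsk7 share 415 of 5202 bases with Rnf214 on the opposite strand.

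Substrates moved in both directions. Of 11 EGF family ligands 9 were tested, 3 rose and 1 fell. Areg, a ligand released by ADAM17, measured 29.2, 32.4 and 39.6 CPM with vehicle and 458, 433 and 486 CPM with RGS (log2 fold change 3.77, SE 0.17, adjusted p = 1.74e-11). Every RGS tumor was far above the vehicle range, whereas Ereg (log2 fold change 0.59, adjusted p = 0.00556) and Hbegf (0.41, adjusted p = 0.0422) rose less and Nrg1 fell (-0.71, adjusted p = 0.018). Of 26 other tested substrates of ADAM10 and ADAM17, 6 rose and 5 fell, with a median log2 fold change of -0.18. Calls in both directions were also common over all genes tested (16.3% higher and 16.5% lower), so this split is not particular to substrates. The Notch ligand Dll4 (3.12 ± 0.340 and 43.9 ± 2.33 CPM, log2 fold change 3.81), the adhesion molecule Alcam (137 ± 14.2 and 681 ± 49.0 CPM, 2.31) and the prion protein gene Prnp (201 ± 32.2 and 388 ± 14.2 CPM, 0.94) rose most. Vcam1, an adhesion molecule for leukocytes, fell from 318 ± 22.4 to 59.3 ± 2.34 CPM (log2 fold change -2.42), as did the receptor Met (149.7 ± 18.9 and 73.2 ± 7.54 CPM, -1.03) and the Kit ligand gene Kitl (157 ± 10.1 and 87.8 ± 1.33 CPM, -0.84).

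Of 17 matrix substrates of ADAMTS proteins 13 were tested, 3 rose and 2 fell. The proteoglycan Dcn (log2 fold change 3.24, adjusted p = 6.23e-05), fibronectin (Fn1, 1.08) and Thbs1 (0.63) rose, and the collagen genes Col3a1 (-0.90) and Col1a2 (-0.73) fell. Versican (Vcan) measured 25.6 ± 5.20 and 17.6 ± 1.55 CPM (adjusted p = 0.078). All 4 genes of clearance and glycosylation were tested and 3 rose: Lrp1, the endocytic receptor that removes several ADAMTS proteins (695 ± 236 and 1829 ± 185 CPM, log2 fold change 1.40), and Pofut2 (1.46) and B3glct (1.27), which add sugars to thrombospondin repeats.

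**Figure D4:**
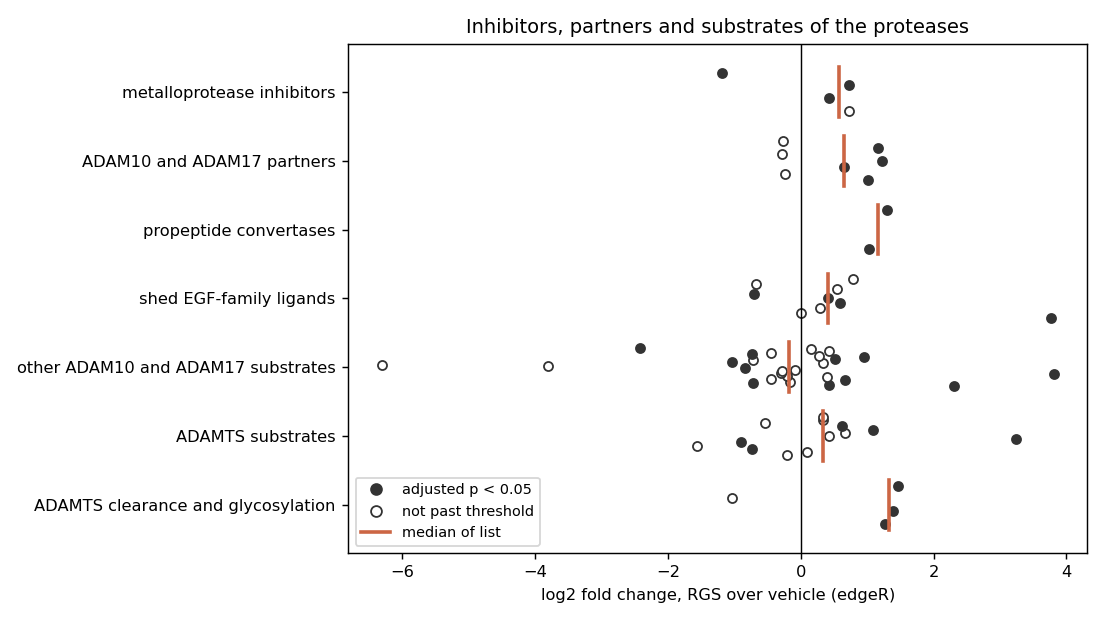
Log2 fold change of RGS over vehicle (horizontal axis) for each tested gene of 7 lists of inhibitors, partners and substrates, filled where adjusted p was under 0.05, with a line at the list median. The medians are 0.64 for partners of ADAM10 and ADAM17, 1.16 for convertases, 1.33 for clearance and glycosylation and -0.18 for other ADAM10 and ADAM17 substrates.

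Markers of other cell types were read beside these results, and their part in them was not tested. For their counts of calls the shares over all genes tested were again 16.3% higher and 16.5% lower. Of 10 fibroblast markers 8 were tested, 4 fell and 1 rose, and the list summed to 408 to 602 CPM with vehicle and 294 to 323 CPM with RGS. Pdgfra and Pdgfrb were among those that fell, by log2 fold changes of -0.70 and -2.20. The gene that rose was Dcn, at 3.24, the largest change of the list. Among 6 pericyte and smooth muscle markers 3 fell, Acta2 among them (-2.28), and 2 rose, with sums of 178 to 253 CPM and 448 to 509 CPM. The higher sum came from Rgs5, which measured 1.12 to 1.43 CPM with vehicle and 368 to 423 CPM with RGS. Endothelial markers summed to 0.946 to 1.20 CPM with vehicle and 3.47 to 11.3 CPM with RGS, with Cdh5 higher (log2 fold change 3.47). Keratinocyte markers summed to 0.428 to 1.72 and 6.77 to 23.1 CPM, and Ivl, called higher among 2 tested, had no read with vehicle and 5.87, 11.4 and 19.6 CPM with RGS (adjusted p = 1.5e-07). Macrophage markers summed to 65.1 to 70.9 and 83.0 to 106 CPM, and of the 2 tested Cd14 was higher (log2 fold change 1.66, adjusted p = 0.000136) while Cd68 was above vehicle without overlap but did not pass (0.24, adjusted p = 0.293). T cell markers summed to at most 0.602 CPM with vehicle and 1.42 CPM with RGS, and Cd3e, Cd3d, Cd3g and Cd8a had no read. Trac, the only T cell marker tested, was higher, with no read with vehicle and 1.42, 1.21 and 0.612 CPM with RGS (adjusted p = 0.00592). Ivl and Trac passed the filter on low counts through the RGS tumors alone. A call could therefore only be higher for them, and these calls are descriptions. No gene of the B cell list could be tested, and no neutrophil or skeletal muscle marker passed.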

How the data were processed

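RNA was sequenced from 6 YUMM3.3 tumors, 3 vehicle and 3 RGS. The authors deposited raw counts of reads per gene, 1 column per tumor, with gene lengths and positions. The submitters' processing notes name cutadapt 1.18, FastQC 0.11.7, STAR 2.7.1a, featureCounts 1.6.4 and mm10, while strand and multi-mapping settings are not given in the sources used here, so reads of overlapping genes on opposite strands may not be separable. Sample groups came from the labels and columns were matched by name. Positions were checked against GENCODE M21 (185 of 196 genes with the same start and end).

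From the deposited counts, genes whose median count reached 5 in either group were tested in R 4.3.3 with edgeR 4.0.16 (TMM factors, quasi-likelihood F test, Benjamini-Hochberg, adjusted p under 0.05). Standard errors were derived from the log2 fold change and the square root of F. RPKM used the deposited gene lengths. The alternatives were DESeq2 1.42.0, limma 3.58.1 voom with quality weights, robust dispersions, 3 other scalings, 2 other filters, thinned counts, each tumor left out and an added fold threshold. The test was also run on counts simulated with dispersions fitted to these same data and with fewer changed genes than were called here. That run does not measure the error rate in the real data.

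Every member was named. Values per tumor were given for members past the threshold with a mean of at least 1 CPM, and for Adam10 and Adam17. Of the companion lists all inhibitors were named, and up to 3 genes per direction of the others. Further genes, the counts of sparse members and the ratios were chosen after their values were seen. The members and lists were chosen with earlier results of these data known. Gene roles were written from general knowledge.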

Additional observations from a re-analysis of the deposited data

How the results depend on the processing

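Of 386 alternative values of the tested genes, 355 kept their direction and side of the threshold, 15 lost the call and 12 gained it. The other 4 changed sign, all in genes past the threshold in neither fit: Adam10 without vehicle tumor 7, Adam1a with voom (-0.98) and without RGS tumor 11, and Adam22 without RGS tumor 11. With each tumor left out their log2 fold changes ranged from -0.22 to 0.019 for Adam10, from -0.46 to 1.16 for Adam1a and from -0.079 to 1.72 for Adam22. Their causes were not tested. Adam15, Adam19, Adam8, Adam9, Adamts14, Adamts4, Adamts7, Adamts9, Adamtsl1 and Adamtsl4 kept their calls in every alternative on scaling, filter, test, dispersion, depth and tumors. Adam17, Adamts1 and Adam21 lost theirs in several. The stricter filter left out Adam21, Adam32 and Adam33, so the alternative values above hold none for these genes with that filter. Voom with quality weights called 4 ADAM genes lower in place of 2 and 2 ADAMTSL genes lower in place of 1, adding Adam11, Adam33, Adamts5 and Adamtsl3. Requiring a log2 fold change beyond 1 in either direction left 0 ADAM genes lower, 0 ADAMTS genes higher, and 1450 lower and 1168 higher among all genes, because the threshold is stricter. DESeq2 called Adam33 and Adamts2 lower in addition.

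With each tumor left out in turn, the counts ranged from 2 to 4 for ADAM genes higher, 2 to 3 for ADAM genes lower, 2 to 3 for ADAMTS genes in each direction, 1 to 2 for ADAMTSL genes lower and 1 for ADAMTSL genes higher, and from 1776 to 2698 for all genes higher and 1717 to 2551 for all genes lower. ADAM genes higher fell to 2 without vehicle tumor 8, RGS tumor 10 or RGS tumor 11, and Adamtsl3 was called lower without RGS tumor 12 (adjusted p = 0.00296). Adamts2 and Adam11 were called lower without RGS tumor 11 (adjusted p = 0.0423 and 0.021). No paired analysis was possible because the groups share no replicate number. With 3 tumors a group, genes under about 1 CPM rested on few reads, and depth was lower in every RGS library.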
